A study of Rattus norvegicus with 27 samples.

Results

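Potassium channel genes were measured in rat motor neurons that supply the tail, below a cut of the sacral cord or after a sham operation. The set comprised every gene whose symbol in the platform annotation begins with Kcn and that had a probe set assigned to that single symbol. Of several probe sets for a gene, the one brightest on average across the 27 arrays was used. By this rule 62 of the 9769 genes with a single-symbol probe set were potassium channel genes: 5 Kcna, 1 Kcnb, 2 Kcnc, 3 Kcnd, 8 Kcnh, 2 Kcnq, 11 Kcnj and 9 Kcnk genes, 6 genes of the modifier subunits Kcng, Kcns and Kcnv, 3 genes of calcium- or sodium-activated channels and 12 genes of auxiliary subunits.

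The animals were male Wistar rats, and the labels give no genotype, age or drug that distinguishes the groups. In the Spi groups the cord was cut at S2 and a short piece of it was removed, and motor neurons were taken 21 days (Spi-21, 8 arrays) or 60 days (Spi-60, 8 arrays) later. The ShamC rats had the laminectomy alone, without opening of the dura, with collection at 21 days (ShamC-21, 6 arrays) or 60 days (ShamC-60, 5 arrays). In every group the motor neurons had been filled from the tail with the tracer fluorogold, were cut out by laser from frozen sections, and their RNA went through repeated rounds of amplification before hybridization, so each array is a small pool of labelled cells.

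Potassium channels let potassium leave the cell and so hold or return the membrane near its resting voltage. Voltage-gated channels (the Kcna to Kcnd, Kcnh and Kcnq genes) repolarize the action potential and limit repetitive firing, inward rectifiers (Kcnj) hold the resting potential, channels with a pair of pore domains (Kcnk) carry leak current, and calcium-activated channels (Kcnn, Kcnma1) carry the afterhyperpolarization. In motor neurons these currents set the input resistance and the firing rate, and motor neurons below a chronic cord injury are known for prolonged firing that accompanies spasticity.

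Values are log2 signals from the authors' robust multi-array average (RMA), and a difference of 1 is a doubling of signal. A level can be set against the same gene's level in another group but not against another gene's. Differences were tested with limma over 12913 probe sets with Benjamini-Hochberg adjustment, and "rose", "fell" or "passed" refers to an adjusted p under 0.05 in that fit. The array medians lay between 6.31 and 6.41. Of the 62 genes, 16 had a mean above 6.35, the median of the probe sets' means, and 46 had a mean at or below it, where signal may be near background.

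The cells and the arrays were checked against markers before the channels were read. The mean of 9 measured motor neuron markers lay between 10.98 and 11.30 in Spi-21, 11.11 and 11.40 in ShamC-21, and 11.09 and 11.40 in Spi-60, whereas in ShamC-60 it reached 11.24 at most and was 9.62 on array 4. Of these markers 4 differed at 60 days (44.4%, against 19.1% of all probe sets), all higher in Spi-60 (Slc18a3, Nefh, Prph, Uchl1). At 21 days 0 passed, against 22.6% of all probe sets. Without ShamC-60 arrays 1 and 4, Slc18a3 was higher by 1.13 and Uchl1 by 0.79 and both passed (adjusted p = 0.0102 and 0.0164), while Nefh at 0.21 and Prph at 0.27 did not. ShamC-60 array 1 had the highest means of its group for astrocyte (9.72), oligodendrocyte (8.98) and microglial (6.58) markers. Of 8 astrocyte markers 3 rose at 21 days (Gfap by 1.07, Slc1a2 by 0.39 and Aldoc by 0.92) and 1 rose at 60 days (Aldoc by 1.38). Of 8 oligodendrocyte and 8 microglial markers, 2 of each rose at 21 days, against 1 of each at 60 days. These were 25% and 12.5% of each list, and the astrocyte calls were 37.5% and 12.5%. Over all probe sets 22.6% passed at 21 days and 19.1% at 60 days. Without ShamC-60 arrays 1 and 4, Aldoc at 1.17, S100b at 0.77 and Slc1a2 at 0.38 passed (adjusted p = 0.000262, 0.0193 and 0.0374). Mbp at 1.68 and Mag at 0.93 passed as well (adjusted p = 0.01 and 0.0211), and the microglial C1qb at 0.38 did not. The remaining glial markers did not pass in that fit, where 6.17% of all probe sets passed at 60 days. The mean over the astrocyte markers ranged from 8.53 to 9.29 in Spi-21 and 7.97 to 9.15 in ShamC-21, and from 8.82 to 9.75 in Spi-60 and 8.54 to 9.72 in ShamC-60. The 3' minus 5' signal of the beta-actin control probe sets averaged 3.21 in Spi-21 and 2.28 in ShamC-21, and 3.27 in Spi-60 and 2.22 in ShamC-60. Both differences passed an exact two-sided permutation test (adjusted p = 0.00266 and 0.00311 over 4 tests). For GAPDH the same measure was 2.13 in Spi-21 and 2.97 in ShamC-21 (exact permutation test, adjusted p = 0.0746), and 3.38 in Spi-60 and 2.57 in ShamC-60 (adjusted p = 0.00414). Of 7 measured markers of synaptic inputs and other neurons, Slc17a7 rose (0.32) and Slc17a6 fell (-0.90) at 21 days. These were 28.6% of the 7, against 22.6% of all probe sets. At 60 days 0 of these 7 passed, against 19.1% of all probe sets. In ShamC-60 the mean of these 7 markers was highest on array 4, at 7.22, against a group median of 6.53. The part of glial RNA, of RNA from other neurons and of RNA quality in the results below was not tested. Nor was that of ShamC-60 arrays 1 and 4. Values without one or both of these arrays are given beside the called genes at 60 days. In pooled cells, fewer cells of a type and less RNA per cell cannot be told apart.

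Across the whole set, a minority of the potassium channel genes differed from sham on either day, and the directions were mixed. At 21 days 6 of 62 rose (Kcna2, Kcnh2, Kcnh3, Kcnip4, Kcnj16, Kcnq5) and 4 fell (Kcnab1, Kcnc2, Kcne3, Kcnk2). At 60 days 9 rose (Kcna1, Kcnd1, Kcnh2, Kcnh3, Kcnj2, Kcnj4, Kcnk3, Kcnk4, Kcnk12) and 4 fell (Kcna4, Kcnj6, Kcnk2, Kcnv1). The 10 genes called at 21 days were 16.1% of the set, against 22.6% of all probe sets (11.3% higher and 11.2% lower). The 13 genes called at 60 days were 21.0%, against 19.1% of all probe sets (10.2% higher and 8.92% lower). The share at 21 days is below the background and the share at 60 days is near it. The counts by subfamily below stand against these same background shares, and each rests on few genes. At 21 and 60 days 20% and 40% of the Kcna genes were called, and 25% of the Kcnh genes on both days. For Kcnj the shares were 9.09% and 27.3%, and for Kcnk 11.1% and 44.4%. The modifier genes had 0% and 16.7%, and the auxiliary genes 25% and 0%. The median difference of the set was 0.05 at 21 days and 0.08 at 60 days, against 0.01 and 0.02 over all probe sets.

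**Figure D1:**
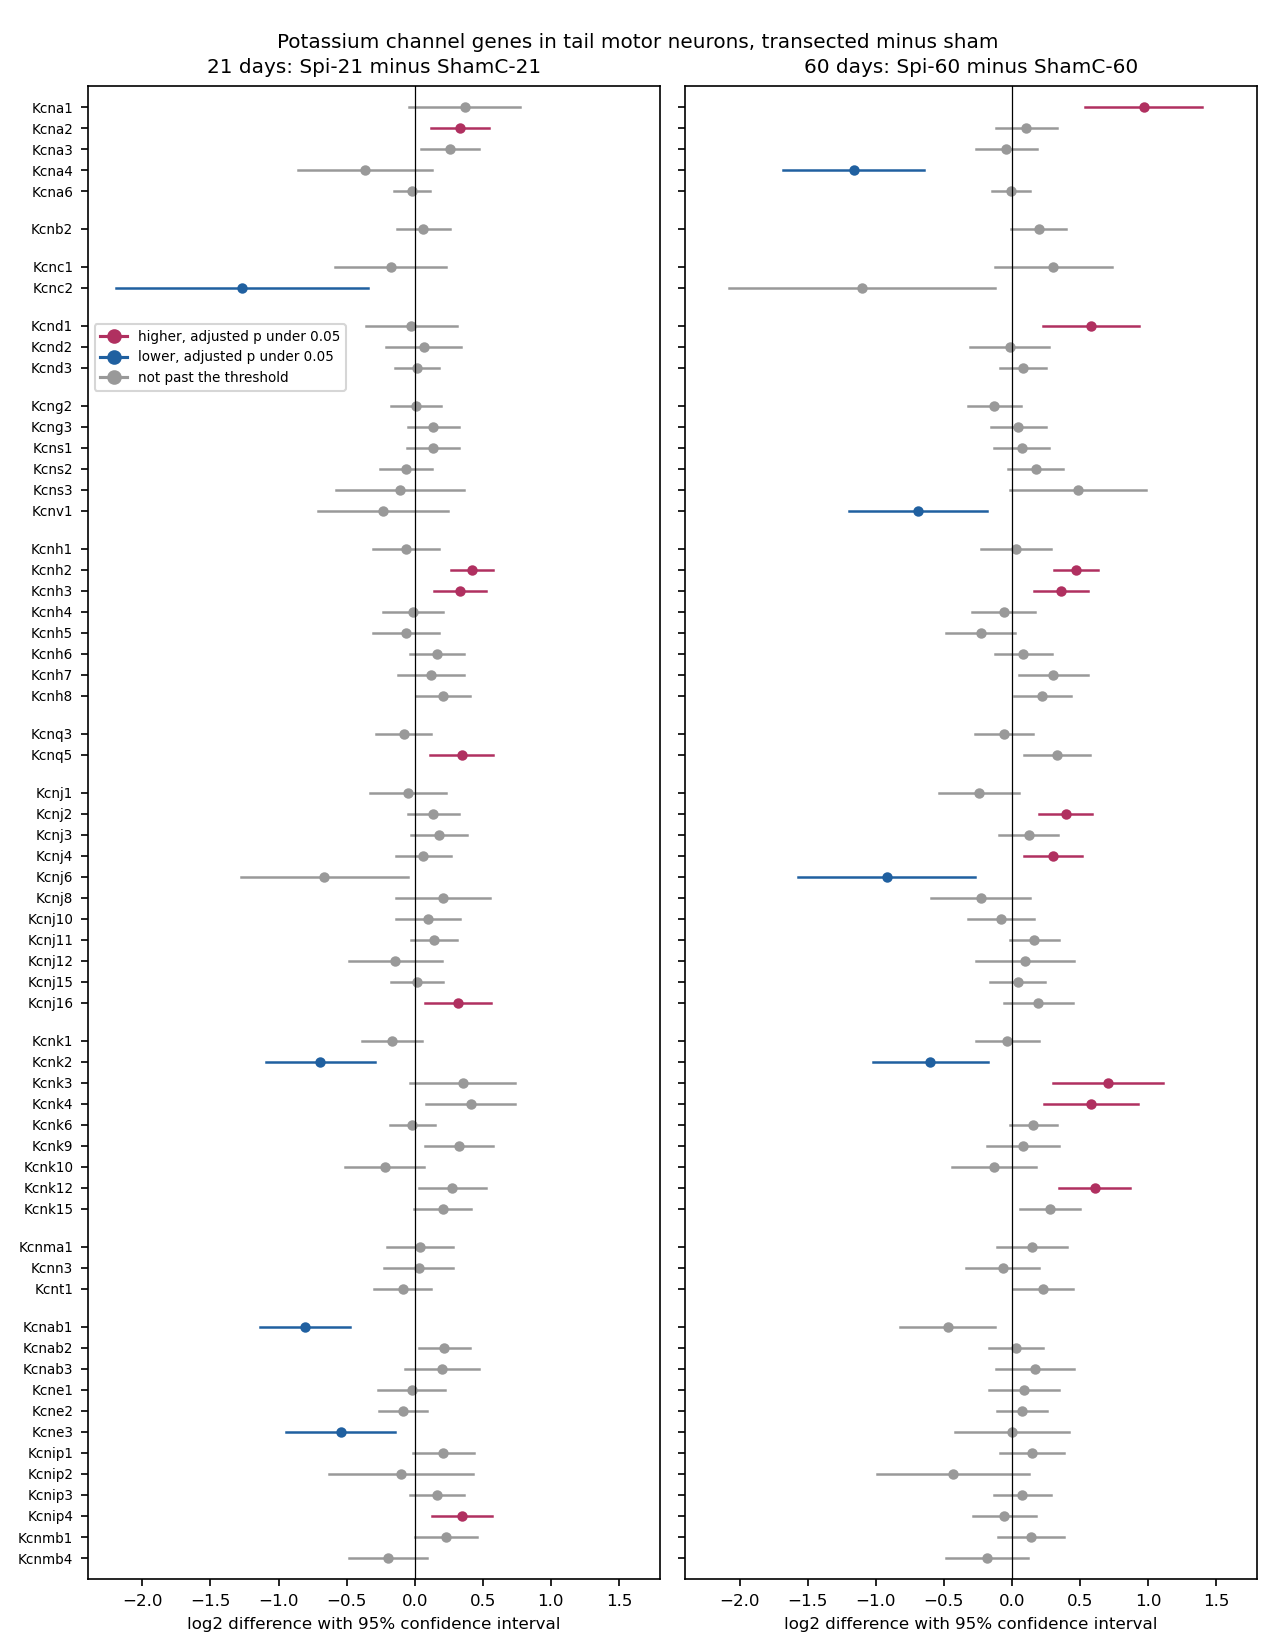
Difference in log2 signal with its 95% confidence interval for each of the 62 genes, transected minus sham, at 21 days (left) and 60 days (right), ordered by subfamily. Kcnh2 and Kcnh3 lie to the right and Kcnk2 to the left of 0 on both days, and most intervals include 0.

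Calls were more frequent among the brighter genes. Among the 16 genes with a mean above 6.35, 5 passed at 21 days and 7 at 60 days (31.2% and 43.8%), against 27.2% and 28.5% of all probe sets above that level. Among the 46 dimmer genes, 5 passed at 21 days and 6 at 60 days (10.9% and 13.0%), against 17.9% and 9.69% of all dim probe sets. Groups that did not overlap at all were seen for 4 genes at 21 days (Kcnh2 and Kcnq5 higher, Kcnab1 and Kcnj6 lower) and 5 at 60 days (Kcnh2, Kcnj2, Kcnk3, Kcnk4 and Kcnk12, all higher). Over all probe sets 5.3% and 8.19% did not overlap.

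The Kcnh genes held the pair that rose on both days. Kcnh2 encodes ERG1, a voltage-gated channel that damps firing in neurons and also acts in the heart. Its lowest, median and highest values were 6.43, 6.57 and 6.82 in Spi-21, against 6.11, 6.16 and 6.30 in ShamC-21. Each of the 8 arrays after transection lay above each of the 6 sham arrays, a difference of 0.42 ± 0.08 (SE; 1.34-fold, adjusted p = 0.000381). At 60 days Kcnh2 had 6.45, 6.59 and 6.73 in Spi-60, against 5.91, 6.17, 6.17, 6.06 and 6.34 on the ShamC-60 arrays. Again no arrays overlapped, and the difference was 0.47 ± 0.08 (1.38-fold, adjusted p = 0.000206). Without ShamC-60 arrays 1 and 4 it was 0.37 (adjusted p = 0.0146).

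Kcnh3 encodes ELK2, a brain channel that opens at subthreshold voltages. It had lowest, median and highest values of 7.16, 7.37 and 7.61 in Spi-21, against 6.91, 6.99 and 7.33 in ShamC-21, a difference of 0.33 ± 0.09 (adjusted p = 0.0114). The highest sham array, 7.33, lay within the range of the transected arrays and the other 5 lay below it. Without Spi-21 arrays 1 to 4 Kcnh3 did not pass at 21 days. At 60 days the values were 7.12, 7.47 and 7.66 in Spi-60, against 6.79, 7.14, 7.10, 7.18 and 7.16 in ShamC-60, with a difference of 0.36 ± 0.10 (adjusted p = 0.0109). Without ShamC-60 array 1, the lowest of its group, the difference was 0.29 and did not pass (adjusted p = 0.0562). Without ShamC-60 arrays 1 and 4 it was 0.30 (adjusted p = 0.113). The other 6 Kcnh genes passed on neither day. Among them Kcnh7 differed by 0.12 and 0.30, Kcnh8 by 0.21 and 0.22 and Kcnh6 by 0.16 and 0.08 at 21 and 60 days, while Kcnh5 differed by -0.06 and -0.23.

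Of the 5 Kcna genes, which encode the Kv1 channels of the axon and its initial segment, 1 rose at 21 days, and at 60 days 1 rose and 1 fell. Kcna1 encodes the low-threshold delayed rectifier that limits repetitive firing. From lowest through median to highest it had 9.93, 10.44 and 11.31 in Spi-60, against 10.09, 9.50, 9.77, 8.68 and 9.64 in ShamC-60. All 8 transected arrays lay above the sham mean and the groups overlapped at one sham array, with a difference of 0.97 ± 0.21 (1.96-fold, adjusted p = 0.00212). Without ShamC-60 arrays 1 and 4 it was 0.87 (adjusted p = 0.0158). At 21 days Kcna1 had 10.14, 10.53 and 11.10 in Spi-21, against 10.05, 10.18 and 10.38 in ShamC-21, and the difference of 0.37 (95% interval -0.04 to 0.77) did not pass. The transected arrays had nearly the same mean on both days (10.50 in Spi-60 and 10.56 in Spi-21), whereas the sham arrays averaged 9.54 in ShamC-60 and 10.20 in ShamC-21 (difference -0.66, adjusted p = 0.999).

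Kcna4 encodes the rapidly inactivating Kv1 subunit of A-type current. Its mean over all arrays, 5.49, is below 6.35, where signal may be near background. The lowest, median and highest signals were 4.64, 5.10 and 5.55 in Spi-60, against 5.86, 6.33, 5.52, 7.71 and 5.81 in ShamC-60. All 8 transected arrays lay below the sham mean and only one of them exceeded the lowest sham array, giving a difference of -1.16 ± 0.25 (2.24-fold lower, adjusted p = 0.00219). ShamC-60 array 4 carried the highest value, and without it and array 1 the difference was -0.80 (adjusted p = 0.027). At 21 days Kcna4 had 4.78, 5.26 and 5.79 in Spi-21, against 5.41, 5.49 and 6.28 in ShamC-21, a difference of -0.36 (adjusted p = 0.278).

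Kcna2, the usual partner of Kcna1 in axonal channels, had lowest, median and highest values of 5.76, 5.96 and 6.56 in Spi-21, against 5.55, 5.74 and 5.79 in ShamC-21. The difference of 0.33 ± 0.10 passed (adjusted p = 0.022), though the lower arrays after transection lay among the sham arrays. Without ShamC-21 array 1 its adjusted p was 0.0589. At 60 days it had 5.76, 5.83 and 6.10 in Spi-60, against 5.85, 5.71, 5.76, 5.62 and 5.83 in ShamC-60, and the difference of 0.11 did not pass (adjusted p = 0.522). Kcna3 differed by 0.26 and -0.04, and Kcna6, the neighbour of Kcna1 in RefSeq's GRCr8 annotation, by -0.02 and -0.00, at 21 and 60 days.

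**Figure D2:**
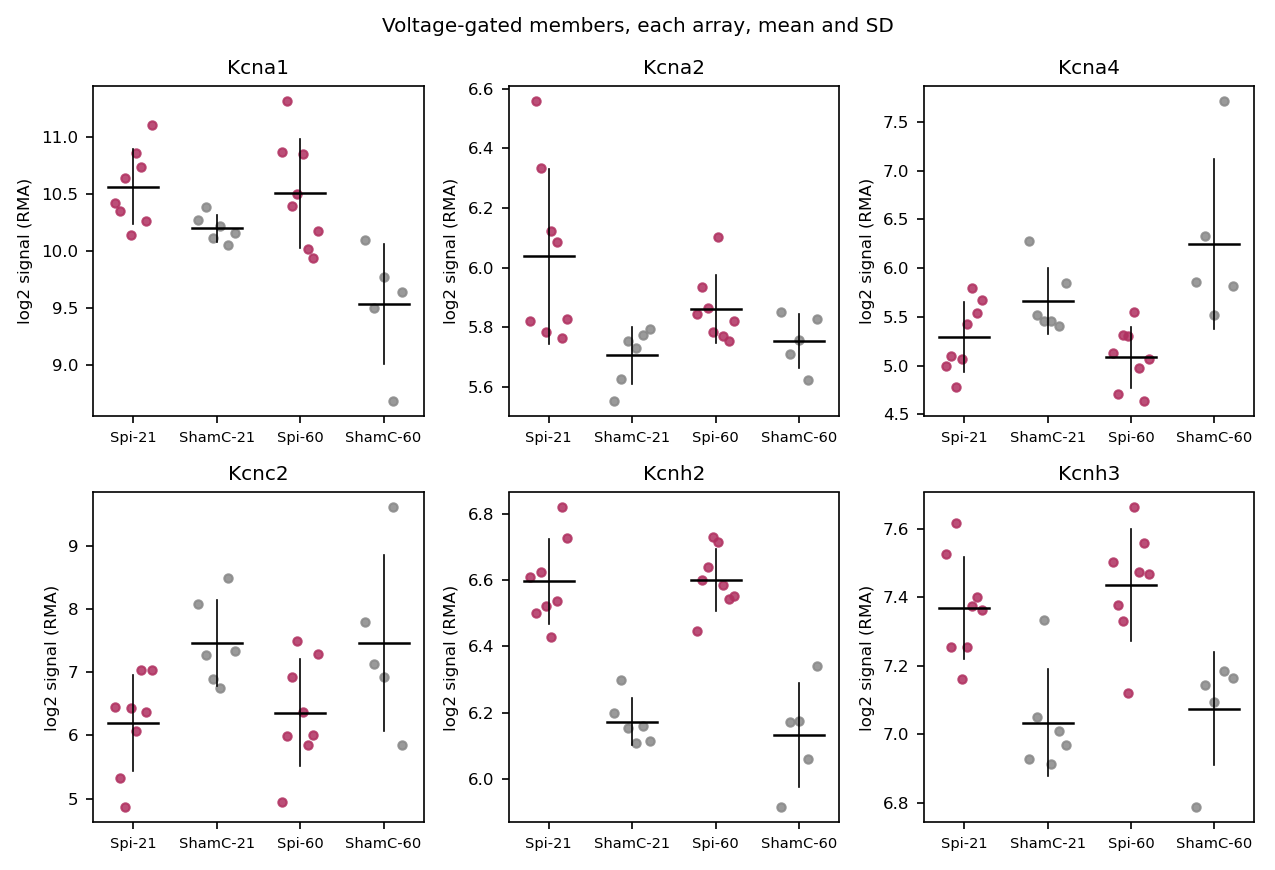
Log2 signal of 6 voltage-gated channel genes on every array, with Spi left of ShamC for each day. The horizontal line is the mean and the vertical line the SD of the group. Kcnh2 separates completely on both days, and ShamC-60 array 4 is the highest point for Kcna4 and Kcnc2 and the lowest for Kcna1.

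The upstream sequences of Kcna2 and Kcna4 are shown because these members of one family passed in opposite directions, on different days. They are the 250 bases before the RefSeq start on GRCr8, 5′ to 3′ on the gene's strand, with the GC box GGGCGG or its reverse complement CCGCCC in capitals. Kcna2 (chr2:197393280-197393529, plus strand) is 72.4% G or C with 3 GC boxes, and Kcna4 (chr3:114215086-114215335, plus strand) is 42.8% with 0.
Kcna2: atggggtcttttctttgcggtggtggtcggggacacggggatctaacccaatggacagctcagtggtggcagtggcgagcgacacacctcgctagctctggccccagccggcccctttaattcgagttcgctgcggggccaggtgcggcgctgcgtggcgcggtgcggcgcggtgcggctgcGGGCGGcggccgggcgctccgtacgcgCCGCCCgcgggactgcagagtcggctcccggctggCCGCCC
Kcna4: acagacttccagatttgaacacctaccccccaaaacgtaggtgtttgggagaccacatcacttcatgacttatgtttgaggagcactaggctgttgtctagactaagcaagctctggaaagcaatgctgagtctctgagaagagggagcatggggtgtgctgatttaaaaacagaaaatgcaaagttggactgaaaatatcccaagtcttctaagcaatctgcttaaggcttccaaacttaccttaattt
Of the 62 genes, 42 were matched in the RefSeq promoter table, with 48 windows among 33469. The GC box, searched on both strands, was present in 27 of the 48 windows and in 30.5% of all windows. The cyclic AMP response element TGACGTCA was in 0 of 48 and 1.59% of all, the AP-1 site TGANTCA in 2 of 48 and 6.34%, and the TATA box TATAAA in 1 of 48 and 12.9%. The median G and C content was 65.2% in the channel genes' windows and 51.2% in all windows. These matches describe the letters in the windows only.

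Of the 2 Kcnc genes, whose high-threshold channels allow fast repolarization and high firing rates, 1 fell at 21 days. Kcnc2 had lowest, median and highest values of 4.86, 6.40 and 7.04 in Spi-21, against 6.75, 7.30 and 8.48 in ShamC-21. All 8 transected arrays lay below the sham mean, and the difference was -1.27 ± 0.45 (2.41-fold lower, adjusted p = 0.0427). The call ended when any one of 8 arrays was left out. At 60 days Kcnc2 had 4.94, 6.20 and 7.49 in Spi-60, against 7.79, 7.14, 6.92, 9.60 and 5.84 in ShamC-60, and its difference of -1.10 did not pass (adjusted p = 0.104). Without ShamC-60 array 4 the difference was -0.56 (adjusted p = 0.423), and without ShamC-60 array 5 it was -1.50 and passed (adjusted p = 0.0253). Kcnc1 had lowest, median and highest values of 7.90, 8.61 and 8.91 in Spi-21, against 8.10, 8.56 and 9.39 in ShamC-21. It had 8.34, 8.70 and 9.42 in Spi-60, against 8.45, 8.39, 8.42, 8.91 and 8.11 in ShamC-60. The groups overlapped on both days, with differences of -0.18 and 0.30 that did not pass.

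Among the 3 Kcnd genes, which carry somatodendritic A-type current, 1 rose at 60 days. Kcnd1 had lowest, median and highest values of 7.59, 7.98 and 8.23 in Spi-60, against 7.41, 7.64, 7.68, 6.65 and 7.63 in ShamC-60. The difference was 0.58 ± 0.17 (1.49-fold, adjusted p = 0.0192), and without ShamC-60 array 4, far below the rest of its group, it was 0.39 (adjusted p = 0.108). At 21 days it had 6.94, 7.63 and 8.10 in Spi-21, against 7.50, 7.58 and 7.92 in ShamC-21, a difference of -0.02 (adjusted p = 0.933). Kcnd2 had 5.28, 5.59 and 6.16 in Spi-21, against 5.35, 5.57 and 5.84 in ShamC-21, and 5.40, 5.52 and 5.81 in Spi-60, against 5.59, 5.31, 5.29, 6.10 and 5.56 in ShamC-60. Its differences were 0.07 and -0.02, and those of Kcnd3 were 0.02 and 0.08. Kcnb2, the single Kcnb gene, differed by 0.06 and 0.20.

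Of the 2 Kcnq genes, subunits of the muscarine-sensitive M current, Kcnq5 rose at 21 days. It had lowest, median and highest values of 6.07, 6.15 and 6.60 in Spi-21, against 5.66, 5.95 and 6.04 in ShamC-21. The arrays did not overlap, and the difference was 0.35 ± 0.11 (adjusted p = 0.0281), lost on leaving out any one of 4 arrays. At 60 days it had 5.95, 6.24 and 6.72 in Spi-60, against 5.84, 6.00, 5.93, 5.67 and 6.31 in ShamC-60, a difference of 0.33 of nearly the same size that narrowly missed the threshold (adjusted p = 0.0504). Kcnq3 had 5.22, 5.64 and 6.18 in Spi-21, against 5.63, 5.70 and 5.77 in ShamC-21. It had 5.55, 5.69 and 5.78 in Spi-60, against 5.74, 5.82, 5.82, 5.65 and 5.72 in ShamC-60, and its differences of -0.08 and -0.06 did not pass.

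The 6 modifier genes encode subunits that form channels only together with other voltage-gated subunits, and 1 of them fell at 60 days. Kcnv1 had lowest, median and highest values of 5.05, 5.15 and 5.45 in Spi-60, against 5.76, 5.48, 5.32, 7.60 and 5.39 in ShamC-60. The difference of -0.69 ± 0.25 passed narrowly (adjusted p = 0.0496) and was -0.27 (adjusted p = 0.257) without ShamC-60 array 4. The call was lost for 21 of the 27 arrays left out singly. At 21 days it had 4.62, 5.19 and 5.56 in Spi-21, against 5.01, 5.47 and 5.63 in ShamC-21, a difference of -0.23 that did not pass. Kcns3 differed by -0.11 and 0.49 (adjusted p = 0.765 and 0.157), and Kcng2, Kcng3, Kcns1 and Kcns2 by -0.13 to 0.17 over both days.

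The Kcnk genes held 3 of the 9 genes that rose at 60 days, together with the one gene of the whole set that fell on both days. At 60 days 44.4% of the 9 Kcnk genes passed, against 19.1% of all probe sets, and at 21 days 11.1%, against 22.6%. Kcnk2 encodes TREK-1, a leak channel opened by stretch, heat and lipids. From lowest through median to highest it had 5.28, 5.90 and 6.76 in Spi-21, against 6.33, 6.70 and 6.83 in ShamC-21. In 7 of the 8 transected arrays it lay below the sham mean, with a difference of -0.69 ± 0.20 (1.62-fold lower, adjusted p = 0.0133). Without Spi-21 arrays 1 to 4 it did not pass at 21 days. At 60 days it had 5.63, 6.22 and 6.36 in Spi-60, against 7.13, 6.29, 7.00, 6.43 and 6.68 in ShamC-60. All 8 transected arrays lay below the sham mean, and the difference was -0.60 ± 0.21 (1.51-fold lower, adjusted p = 0.042). This second call was lost on leaving out any one of 6 arrays, and without ShamC-60 arrays 1 and 4 the difference was -0.55 (adjusted p = 0.191).

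Kcnk2 has 2 upstream windows in the RefSeq table, at starts of separate transcripts on the minus strand of GRCr8 chromosome 13. Both are printed because it is the one gene of the set that passed as lower on both days. They lie at chr13:103438643-103438892 and chr13:103494687-103494936, are 45.6% and 42.0% G or C, and hold 0 GC boxes, so no letter is in capitals.
Kcnk2, first window: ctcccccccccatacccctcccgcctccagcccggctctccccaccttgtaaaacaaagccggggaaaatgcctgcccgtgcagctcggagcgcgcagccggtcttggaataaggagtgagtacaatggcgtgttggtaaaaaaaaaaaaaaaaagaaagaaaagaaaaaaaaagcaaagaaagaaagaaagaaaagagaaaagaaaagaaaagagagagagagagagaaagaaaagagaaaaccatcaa
Kcnk2, second window: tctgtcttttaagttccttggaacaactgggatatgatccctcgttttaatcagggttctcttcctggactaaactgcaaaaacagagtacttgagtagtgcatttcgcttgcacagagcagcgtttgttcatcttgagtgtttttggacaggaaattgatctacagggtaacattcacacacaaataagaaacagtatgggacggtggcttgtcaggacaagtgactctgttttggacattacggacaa

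Kcnk12 encodes THIK-2, a leak subunit that gives little current by itself. Its mean over all arrays, 6.09, is below 6.35, where signal may be near background. The lowest, median and highest signals were 5.99, 6.31 and 6.81 in Spi-60, against 5.60, 5.70, 5.97, 5.75 and 5.72 in ShamC-60. No arrays overlapped, with a difference of 0.61 ± 0.13 (1.52-fold, adjusted p = 0.00157), and it was 0.56 (adjusted p = 0.0292) without ShamC-60 arrays 1 and 4. At 21 days it had 5.85, 6.17 and 6.62 in Spi-21, against 5.78, 5.91 and 6.12 in ShamC-21, a difference of 0.28 that did not pass (adjusted p = 0.096).

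Kcnk3 encodes TASK-1, the acid-sensitive leak channel known from motor neurons. It had lowest, median and highest values of 7.40, 7.66 and 7.97 in Spi-60, against 7.03, 7.24, 7.01, 6.77 and 6.95 in ShamC-60. The arrays did not overlap and the difference was 0.71 ± 0.20 (1.63-fold, adjusted p = 0.0137). Without ShamC-60 arrays 1 and 4 it was 0.64 and did not pass (adjusted p = 0.113). At 21 days it had 6.70, 7.57 and 8.58 in Spi-21, against 7.03, 7.29 and 7.38 in ShamC-21, and the wide spread of the transected arrays left a difference of 0.35 (adjusted p = 0.173). That difference was 0.70 without Spi-21 arrays 5 to 8 and 0.01 without Spi-21 arrays 1 to 4. Kcnk9, the related TASK-3, had 5.73, 5.91 and 6.16 in Spi-21, against 5.45, 5.59 and 5.82 in ShamC-21, a difference of 0.33 (adjusted p = 0.056). It had 5.45, 5.65 and 6.26 in Spi-60, against 5.56, 5.78, 5.80, 5.64 and 5.75 in ShamC-60, a difference of 0.08.

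Kcnk4 encodes TRAAK, a mechanosensitive channel of the same branch as Kcnk2. From lowest through median to highest it had 6.81, 7.20 and 7.42 in Spi-60, against 6.65, 6.64, 6.75, 6.06 and 6.69 in ShamC-60. The arrays did not overlap, and the difference was 0.58 ± 0.17 (1.49-fold, adjusted p = 0.0175). Without ShamC-60 array 4 it was 0.46 (adjusted p = 0.0825). At 21 days Kcnk4 had 6.37, 6.94 and 7.76 in Spi-21, against 6.43, 6.61 and 6.77 in ShamC-21, a difference of 0.41 that did not pass (adjusted p = 0.0632). It was 0.12 without Spi-21 arrays 5 to 8 and 0.70 without Spi-21 arrays 1 to 4, the opposite pattern to Kcnk3. The other 4 Kcnk genes, Kcnk1, Kcnk6, Kcnk10 and Kcnk15, passed on neither day, with differences of -0.22 to 0.28.

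**Figure D3:**
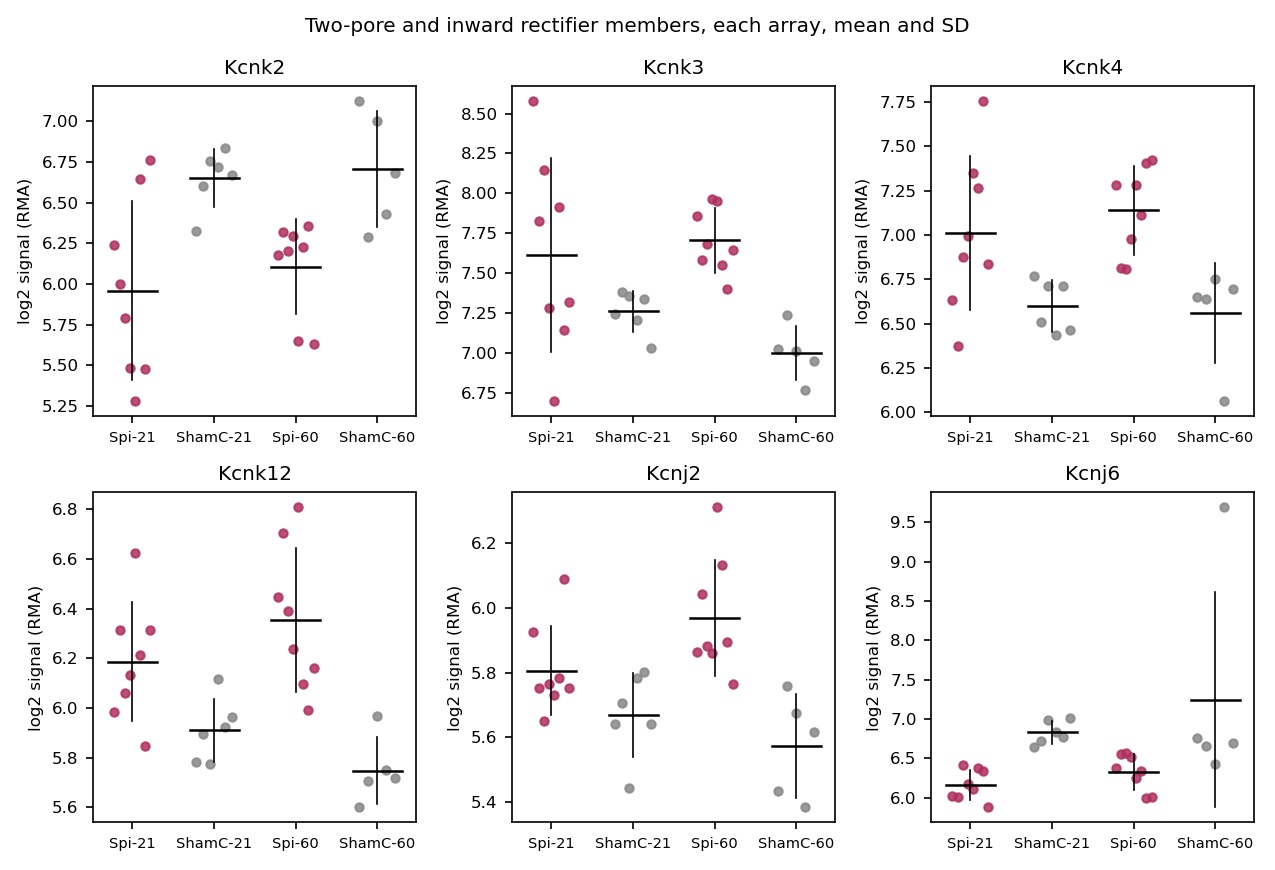
Log2 signal of 4 Kcnk and 2 Kcnj genes on every array, with Spi left of ShamC for each day. The horizontal line is the mean and the vertical line the SD of the group. Kcnk3, Kcnk4, Kcnk12 and Kcnj2 do not overlap at 60 days, and ShamC-60 array 4 stands at 9.69 for Kcnj6.

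Of the 11 Kcnj genes, 1 rose at 21 days, and at 60 days 2 rose and 1 fell. Kcnj2 and Kcnj4 encode strong inward rectifiers of the Kir2 family, which stabilize the resting potential. Kcnj2 had lowest, median and highest values of 5.76, 5.89 and 6.31 in Spi-60, against 5.43, 5.76, 5.68, 5.38 and 5.62 in ShamC-60. The arrays did not overlap, with a difference of 0.39 ± 0.10 (1.31-fold, adjusted p = 0.0053), and it was 0.28 (adjusted p = 0.132) without ShamC-60 arrays 1 and 4. Kcnj4 had 5.24, 5.44 and 5.66 in Spi-60, against 5.34, 5.12, 5.17, 5.00 and 5.04 in ShamC-60, with 0.30 ± 0.10 (adjusted p = 0.0394), lost on leaving out any one of 9 arrays. Without ShamC-60 arrays 1 and 4 it was 0.33 (adjusted p = 0.116). At 21 days Kcnj2 had 5.65, 5.76 and 6.09 in Spi-21, against 5.44, 5.67 and 5.80 in ShamC-21, and Kcnj4 had 4.96, 5.25 and 5.65 in Spi-21, against 5.07, 5.16 and 5.46 in ShamC-21. The groups overlapped, with differences of 0.14 for Kcnj2 and 0.06 for Kcnj4. Kcnj12, the third measured Kir2 gene, differed by -0.14 and 0.10.

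Kcnj6 encodes GIRK2, a channel opened by G proteins downstream of inhibitory transmitter receptors. The lowest, median and highest signals were 5.89, 6.14 and 6.41 in Spi-21, against 6.65, 6.80 and 7.02 in ShamC-21. No arrays overlapped, yet the difference of -0.67 ± 0.30 did not pass (adjusted p = 0.106). The fit shares one spread among the 4 groups, and without ShamC-60 array 4, which stood far above its group, the same difference at 21 days had an adjusted p of 0.000118. At 60 days Kcnj6 had 6.00, 6.36 and 6.57 in Spi-60, against 6.76, 6.66, 6.43, 9.69 and 6.70 in ShamC-60, and the difference of -0.92 ± 0.32 passed (adjusted p = 0.0401). Without array 4 the difference at 60 days was -0.31 and did not pass (adjusted p = 0.0935). Kcnj3, which encodes GIRK1, differed by 0.18 and 0.12.

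Kcnj16 and Kcnj10 encode subunits that form channels together in glia. Kcnj16 had lowest, median and highest values of 5.81, 6.23 and 6.56 in Spi-21, against 5.59, 5.87 and 6.13 in ShamC-21. The groups overlapped and the difference of 0.32 ± 0.12 passed narrowly (adjusted p = 0.0493), lost on leaving out any one of 18 arrays. At 60 days it had 5.95, 6.17 and 6.42 in Spi-60, against 6.27, 6.07, 5.92, 6.04 and 5.73 in ShamC-60, a difference of 0.19 that did not pass. Kcnj10 had 4.71, 5.23 and 5.38 in Spi-21, against 4.89, 5.08 and 5.25 in ShamC-21. It had 4.64, 5.06 and 5.31 in Spi-60, against 5.28, 4.84, 5.18, 5.04 and 5.13 in ShamC-60. Its differences, 0.10 and -0.08, did not pass. The other 4 Kcnj genes, Kcnj1, Kcnj8, Kcnj11 and Kcnj15, passed on neither day, with differences of -0.24 to 0.21.

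None of the 3 measured genes of calcium- and sodium-activated channels passed on either day by its brightest probe set. At 21 and 60 days 0 and 1 of them had an unadjusted limma p under 0.05, against 4700 and 4341 of 12913 probe sets. Kcnma1, the large-conductance calcium-activated channel, had lowest, median and highest values of 6.04, 6.55 and 7.05 in Spi-21, against 6.31, 6.47 and 6.63 in ShamC-21. It had 6.13, 6.41 and 6.81 in Spi-60, against 6.39, 6.36, 6.32, 6.19 and 6.32 in ShamC-60, with differences of 0.04 (95% interval -0.21 to 0.28) and 0.15 (-0.11 to 0.41). A second Kcnma1 probe set was higher by 0.29 and 0.36 at 21 and 60 days and passed in limma (adjusted p = 0.036 and 0.0162). Kcnn3, a small-conductance channel of the afterhyperpolarization, had 5.44, 5.93 and 6.54 in Spi-21, against 5.69, 5.91 and 6.07 in ShamC-21. It had 5.60, 5.83 and 6.15 in Spi-60, against 5.84, 5.94, 5.90, 5.80 and 6.20 in ShamC-60. Its differences were 0.03 (-0.23 to 0.28) and -0.07 (-0.34 to 0.20). Kcnt1, a sodium-activated channel, differed by -0.09 and 0.23.

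Of the 12 auxiliary subunit genes, 1 rose and 2 fell at 21 days, and 0 passed at 60 days, by the brightest probe set of each. An unadjusted limma p under 0.05 at 60 days was found for 1 of the 12, against 4341 of 12913 probe sets. Kcnab1 encodes a cytoplasmic beta subunit that gives Kv1 channels fast inactivation. It had lowest, median and highest values of 8.93, 9.72 and 9.96 in Spi-21, against 10.23, 10.36 and 10.63 in ShamC-21. Every transected array lay below every sham array, with a difference of -0.80 ± 0.16 (1.75-fold lower, adjusted p = 0.00112). At 60 days it had 9.29, 9.94 and 10.23 in Spi-60, against 10.57, 10.21, 10.34, 10.54 and 9.90 in ShamC-60, a difference of -0.47 that narrowly missed the threshold (adjusted p = 0.0517).

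Kcne3, a small membrane subunit that partners several voltage-gated channels, had lowest, median and highest values of 5.79, 6.21 and 6.80 in Spi-21, against 6.20, 6.55 and 7.71 in ShamC-21. Its groups overlapped, and the difference of -0.54 ± 0.19 (adjusted p = 0.0446) was lost on leaving out any one of 9 arrays. At 60 days it had 6.03, 6.25 and 6.87 in Spi-60, against 6.26, 6.60, 6.48, 6.01 and 6.56 in ShamC-60, a difference of 0.00 (95% interval -0.42 to 0.42). Kcnip4, a calcium-binding partner of the Kcnd channels, had 5.05, 5.57 and 5.81 in Spi-21, against 4.88, 5.19 and 5.32 in ShamC-21, a difference of 0.35 ± 0.11 (adjusted p = 0.0215). Without ShamC-21 array 2 its adjusted p was 0.0644, and at 60 days it had 4.97, 5.30 and 5.54 in Spi-60, against 5.29, 5.26, 5.15, 5.38 and 5.53 in ShamC-60, a difference of -0.06. Among the other 9 auxiliary genes Kcnip2 differed by -0.10 and -0.43 (neither passed). ShamC-60 array 4 stood at 9.82 for Kcnip2, against 7.06 to 7.19 on the other sham arrays, and without it the difference at 60 days was 0.11 (adjusted p = 0.473). The remaining auxiliary genes lay between -0.20 and 0.23.

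**Figure D4:**
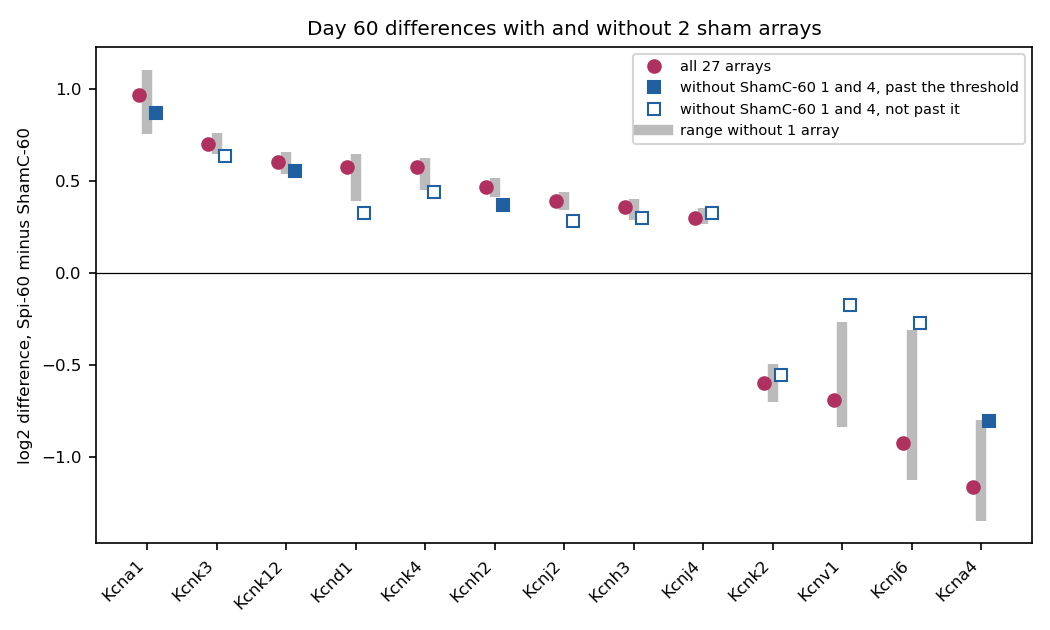
Log2 difference, Spi-60 minus ShamC-60, of the 13 genes called at 60 days, with all 27 arrays (circles) and without ShamC-60 arrays 1 and 4 (squares, filled where the adjusted p stays under 0.05). Grey bars span the differences found on leaving out each array in turn. Kcna1, Kcnh2, Kcnk12 and Kcna4 keep filled squares, and Kcnj6 and Kcnv1 move furthest toward 0.

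The calls at 60 days were recomputed without ShamC-60 arrays 1 and 4, which leaves 3 sham arrays. Without them 3 genes rose (Kcna1, Kcnh2, Kcnk12) and 1 fell (Kcna4) of 62, and 6.17% of all probe sets passed, against 19.1% with all arrays. The direction of all 13 called genes was the same with and without these arrays. Of the 9 calls lost, Kcnd1, Kcnj6 and Kcnv1 had differences that moved by over 1.5 times, and the other 6 moved by less. At 21 days, without Spi-21 arrays 1 to 4, Kcnh2 at 0.45 and Kcnab1 at -0.55 were still called, Kcnk4 at 0.70 gained a call, and the other 8 genes called with all arrays did not pass. These 8 include Kcnh3 and Kcnk2. Of these 8, Kcnc2 was then -0.84, Kcnip4 0.19 and Kcnq5 0.22. In that fit 10.3% of all probe sets passed at 21 days, against 22.6% with all arrays. Without Spi-21 arrays 5 to 8 the share was 30.2%, Kcne3 and Kcnj16 lost their calls and Kcnk3 gained one.

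For 9 genes the array carries further probe sets, and several of these did not follow the brightest one. The second Kcnab1 probe set differed by 0.27 at 21 days and passed (adjusted p = 0.0289), opposite to the brightest one at -0.80. Of the 3 other Kcnc2 probe sets, one was higher by 0.45 at 21 days (adjusted p = 0.035) and the others differed by 0.21 and -0.05, against -1.27 for the brightest. At 60 days a second Kcnj6 probe set was higher by 0.28 (adjusted p = 0.0381), against -0.92, and the second Kcnk3 probe set differed by -0.04 (adjusted p = 0.837), against 0.71. A second Kcnma1 probe set was higher on both days, by 0.29 and 0.36 (adjusted p = 0.036 and 0.0162), where the brightest did not pass, and a second Kcne2 probe set fell by 0.49 at 60 days (adjusted p = 0.00869). At 60 days the third Kcnj6 probe set differed by -0.17 (adjusted p = 0.366). For Kcnab1, Kcnc2, Kcnj6 and Kcnk3, the call given above was thus made on 1 probe set each, and at least one other probe set of the gene had the opposite sign in that comparison. Kcnh2, Kcnh3, Kcna1, Kcna4, Kcnk2 and Kcnk12 have a single probe set here.

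**Figure D5:**
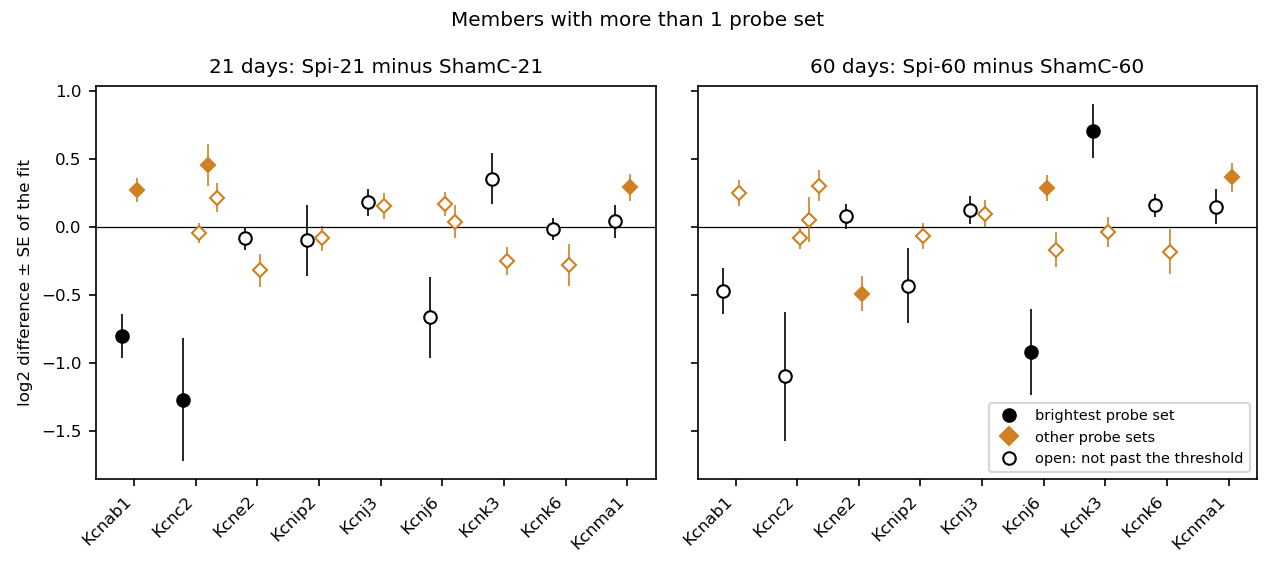
Log2 difference, transected minus sham, with the standard error of the fit, for the 9 genes with more than 1 probe set at 21 days (left) and 60 days (right). Circles are the brightest probe set, diamonds the others, and filled symbols passed. For Kcnab1, Kcnc2 and Kcnj6 a filled symbol lies on each side of 0 on at least one day.

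The days were compared directly. Of the 62 genes, 3 passed on both days, all in the same direction (Kcnh2 and Kcnh3 higher, Kcnk2 lower), 20 passed on either day and 42 on neither. No matching share of all probe sets is given here, so these counts are not read as many or few. Kcnh2 kept its call at 21 days without Spi-21 arrays 1 to 4 and at 60 days without ShamC-60 arrays 1 and 4. Kcnh3 and Kcnk2 lost theirs in both of these fits. The difference between the day 60 and the day 21 effect passed for 0 of 62 genes in limma, against 0% of all probe sets. An unadjusted limma p under 0.05 was found for 5 of the 62 genes, against 905 of 12913 probe sets. Kcnd1 (0.60, 95% interval 0.12 to 1.09) and Kcnip4 (-0.40, -0.73 to -0.08) had the lowest adjusted p, 0.653. That for Kcna4 was -0.80 (-1.51 to -0.08) and for Kcna1 0.60 (0.01 to 1.19). A gene called on one day only is therefore not shown to differ between days. Comparing Spi-60 with Spi-21, 0 of 62 genes passed in limma, against 0.0852% of all probe sets, and ShamC-60 with ShamC-21 gave 0 of 62, against 0%. The lowest adjusted p between the transected groups was 0.131, for Kcna3, lower by 0.32 in Spi-60.

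Genes that act with the channels without a Kcn symbol were read from a list of 35 partners, of which 22 were measured. At 21 days 3 rose and 2 fell (22.7%, against 22.6% of all probe sets), and at 60 days 3 rose and 0 fell (13.6%, against 19.1%). Sptbn4, the beta-IV spectrin that anchors channels at the axon initial segment and nodes, rose by 1.72 ± 0.21 at 21 days and 1.69 ± 0.22 at 60 days (adjusted p = 4.1e-06 and 8.89e-06). At 21 days Lingo1 rose by 0.49 and Lrrc26, an auxiliary subunit of the Kcnma1 channel, by 0.27. In the same comparison Dlg2, a scaffold that clusters Kv1 channels, fell by 0.78 and Vapa, a partner of Kv2 channels, fell by 0.34. At 60 days Lgi3 rose by 0.83 and Cntnap1, the paranodal Caspr, by 0.39. Without ShamC-60 arrays 1 and 4 Sptbn4 was higher by 1.30 (adjusted p = 0.00108), while Lgi3 at 0.48 and Cntnap1 at 0.27 did not pass. Of 18 potassium transport genes 9 were measured, and 1 rose at 21 days (the potassium-chloride cotransporter Slc12a7, by 0.32, 11.1% of those measured) and 0 passed at 60 days. The median difference of the partners was -0.05 and 0.01, and of the transport genes 0.14 and 0.07, at 21 and 60 days.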

How the data were processed

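Motor neuron RNA was hybridized to Affymetrix rat expression arrays, and the authors deposited log2 values made with RMA, per the submitters' processing notes (its version is not given in the sources used here). Of 12919 deposited probe sets, 6 control probe sets were left out. Probe sets were named from the platform annotation: 11880 had 1 symbol, 320 several and 713 none listed. All 62 channel genes were found in RefSeq by gene ID. limma 3.58.1 in R 4.3.3 fitted the 4 group means on 27 arrays with one shared spread, and p-values were adjusted over 12913 probe sets at a threshold of 0.05. The fit was tested on simulated data with independent values, which does not cover arrays that depart from their group. Values are given over the arrays (lowest, median and highest, or each of the 5 ShamC-60 values) for every gene past the threshold in any comparison and for a list of well-known channels. The channel genes and the marker and partner lists were chosen with earlier results of these data known. The labels call the arrays biological replicates, and their number limits the precision. Array numbers were not used as pairs in the main fit (closing section). Alternatives were quantile normalization, median centring, a signal filter, a replicate block, array weights, a robust trend and leaving out arrays. Control probe sets were compared with an exact permutation test (scipy 1.17.1). No genome or protein sequences were used here.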

Additional observations from a re-analysis of the deposited data

Results flagged for a closer look

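In 108 sets of values, each a gene within a group, 6 values, on 3 distinct arrays, stood far from the rest of their group, where chance alone marks about 1 set in 20. Of these, 4 are on ShamC-60 array 4: Kcnj6 was 9.69 there with the nearest array at 6.76, Kcnv1 was 7.60 with the nearest at 5.76, Kcnd1 was 6.65 with the nearest at 7.41, and Kcnk4 was 6.06 with the nearest at 6.64. The mean of the motor neuron markers was also lowest on this array, at 9.62. Kcnh3 was 6.79 on ShamC-60 array 1, with the nearest at 7.10, and 7.33 on ShamC-21 array 3, with the nearest at 7.05.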

How the results depend on the processing

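Leaving out each of the 27 arrays in turn gave 3 to 7 genes higher and 2 to 5 lower at 21 days (6 and 4 with all arrays), and 6 to 10 higher and 1 to 5 lower at 60 days (9 and 4 with all arrays). In these fits 15.8% to 24.6% of all probe sets passed at 21 days and 11.9% to 21.4% at 60 days. At 21 days 10 genes rose with array weights, where 26.5% of all probe sets passed. Without Spi-21 arrays 1 to 4 there were 2 higher (1 of them not called with all arrays) and 1 lower, where 10.3% passed. When dim probe sets were left out, 2 of the 16 genes above the median signal rose, the same number as with all probe sets. At 60 days 2 of the 16 brighter genes fell when dim probe sets were left out, against 1 of these 16 with all probe sets. Without ShamC-60 arrays 1 and 4 there were 3 higher and 1 lower, where 6.17% of all probe sets passed. Fits that leave out arrays or dim probe sets have fewer samples or genes, and the cause of these shifts was not tested further. Among the genes called in that comparison, the sign reversed only on another probe set of the same gene: Kcnab1 0.27 at 21 days, Kcnc2 0.45 and 0.21 at 21 days, Kcnj6 0.28 at 60 days, and Kcnk3 -0.038 at 60 days. Kcnh2 on both days, Kcnab1 at 21 days and Kcna1, Kcna4 and Kcnk12 at 60 days passed in every setting that tested their brightest probe set. Kcna4 (mean 5.49) and Kcnk12 (mean 6.09) are dim and were not tested in the fit that left out dim probe sets. The table of every channel gene without ShamC-60 arrays 1, 4 or both at 60 days was computed after the data were seen. Quantile normalization moved the median of all probe sets by at most 0.03. With the replicate number as a block, 8 genes rose and 3 fell at 21 days and 10 rose and 4 fell at 60 days. That fit passed 25% and 23.8% of all probe sets on these days. Arrays of the same number correlated at -0.20 to 0.18 (21 days, 6 pairs) and -0.31 to 0.33 (60 days, 5 pairs) in their deviations. In this check 2 of 6 and 0 of 5 sham arrays were closest to their own number. With so few pairs this cannot show whether the numbers pair the arrays, and the main fit did not pair them. The differences between days and between the same operation on both days gave 0 genes in each leave-one-out fit. Dim signals limit 46 of the 62 genes.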
